A study of Homo sapiens with 16 samples.

Results

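Prostaglandins are made from arachidonic acid, which phospholipases cut from the membrane and which the cyclooxygenases PTGS1 and PTGS2 turn into prostaglandin H. Terminal synthases then make the individual prostanoids, among them prostaglandin E2 (PTGES, PTGES2 and PTGES3) and prostacyclin (PTGIS), and HPGD starts their breakdown. The products leave the cell and act on neighbouring cells or on the cell that made them through G protein-coupled receptors, among them PTGER2 and PTGER4 for prostaglandin E2 and PTGFR for prostaglandin F2α, and PTGS2 is the inducible enzyme that is best known from inflamed tissue and from tumors. These 10 genes, chosen for their function with earlier results of these data known, were followed among the 57820 gene identifiers of the count tables in 2 cell lines, 2 reporter states and 2 serum conditions.

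MDA-MB-231 and MDA-MB-436 are human triple-negative breast cancer lines with a mesenchymal phenotype. Per the study's methods, MDA-MB-231 carries a mutation of CDKN2A among others, and MDA-MB-436 carries a mutation of BRCA1 among others. Both lines were stably transfected with the 7TGP plasmid, in which TCF binding sites drive eGFP and which confers puromycin resistance, and were sorted repeatedly into a bright 7TGP-POS subline and an eGFP-negative 7TGP-NEG subline, so that each subline is 1 sorted population of 1 line and both states carry the reporter. Each subline was grown for 3 days in low serum (0.5% FBS) and for 6 days in standard serum (10% FBS), with 2 biological replicates in each of the 8 groups. Per the methods, the low-serum libraries were rRNA-depleted and the standard-serum libraries were poly(A)-selected and sequenced on another instrument. Serum, days in culture, library kit and run changed together, cannot be told apart and were not tested. The methods also give each line its own culture medium, whereas the labels name the same medium for both, so that in comparisons between the lines a difference of line and one of medium cannot be told apart.

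The libraries held 27918418 to 32667756 counts in low serum and 31827130 to 46044073 in standard serum. The mesenchymal markers VIM, FN1 and ZEB1 and the keratins KRT8 and KRT18 were detected in every group, whereas SPARC, another mesenchymal marker, was at 0.68 to 1.70 mean CPM in MDA-MB-231 and at 0.87 to 10.8 in MDA-MB-436. The epithelial marker EPCAM was at 7.79 to 9.34 mean CPM in MDA-MB-231 and 2.01 to 2.51 in MDA-MB-436, CDH1 stayed at or below 0.31 mean CPM in every group and ESR1 at or below 0.70, whereas ERBB2 was detected at 54.0 to 132 mean CPM. CDKN2A was at 0 to 0.23 mean CPM in MDA-MB-231 and at 77.2 to 124 in MDA-MB-436. The leukocyte gene PTPRC was read at 2.19 to 10.0 mean CPM in MDA-MB-231, while the T-cell gene CD3E was at or near 0 in both lines, and the part of this in any result was not tested. Of 8 genes that canonical Wnt signaling commonly induces, the test passed in low serum for AXIN2, LEF1, LGR5 and RNF43 as higher and SP5 as lower in 7TGP-POS of MDA-MB-231, and for LEF1 and ZNRF3 as higher and NKD1 and SP5 as lower in 7TGP-POS of MDA-MB-436. In standard serum RNF43 passed as higher in MDA-MB-231 and as lower in MDA-MB-436, where LEF1 passed as higher and SP5 as lower.

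In MDA-MB-231, 7TGP-POS cells had at least 2-fold more PTGS2 and PTGFR mRNA than 7TGP-NEG cells in both serum conditions, more PTGES in low serum and more PTGS1 in standard serum. By less than 2-fold, PTGES also passed the test as higher in standard serum, PTGER4 as higher in low serum and PTGES2 as lower in both. In MDA-MB-436, 7TGP-POS cells had at least 2-fold more PTGS1, PTGIS and PTGFR and less PTGER2 and PTGER4 in both serum conditions, and less PTGS2 and PTGES in standard serum. In low serum PTGES and PTGES3 were lower and PTGES2 higher there, each by less than 2-fold. In bulk libraries, fewer cells expressing a gene and less of its mRNA per cell cannot be told apart. A differentially expressed gene (DEG) had an adjusted p below 0.05 and differed at least 2-fold, that is by 1 on the log2 scale. In MDA-MB-231, 3 of the 10 genes were DEGs in low serum, all higher in 7TGP-POS, beside 5.9% of the 16069 genes tested (3.5% higher, 2.4% lower). In standard serum 3 of 10 were DEGs, again all higher, beside 7.69% of 15414 (4.96% higher, 2.72% lower). In MDA-MB-436, 5 of 10 were DEGs in low serum (3 higher, 2 lower), beside 10.5% of all genes (6.52% higher, 4.03% lower), and 7 of 10 in standard serum (3 higher, 4 lower), beside 12.5% (6.47% higher, 6.06% lower). The median log2 fold change of the 9 genes above 3 counts in both states was 0.25 in low serum and 0.26 in standard serum in MDA-MB-231, against -0.01 and 0 over all genes tested. In MDA-MB-436 it was 0.07 (10 genes) and 0.00 (9 genes), against 0.01 and 0.00 over all genes. By the adjusted p alone, 5 and 5 of the 10 genes passed in MDA-MB-231, beside 38.9% and 33% of all genes, and 8 and 7 in MDA-MB-436, beside 52% and 49.5%.

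The reporter state and the cell line were also tested together, as the difference between the POS-to-NEG change in MDA-MB-231 and that in MDA-MB-436. This difference passed both thresholds for 5 of the 10 genes in low serum, beside 11.7% of all genes, and for 4 of 10 in standard serum, beside 13.8%. By the adjusted p alone 7 of the 10 genes passed in low serum, beside 45.7% of all genes, and 5 in standard serum, beside 41.2%. PTGS2, PTGES, PTGER2 and PTGER4 passed both thresholds in both serum conditions, each with a more positive change in MDA-MB-231. PTGES2 passed by the adjusted p alone in both, with a more negative change in MDA-MB-231. PTGFR was called higher in 7TGP-POS in all 4 comparisons, and it belongs to the shared signature that the study drew from these same data. The shares of all genes called in all 4 comparisons, or passing here in both serum conditions, were not counted.

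**Figure D1:**
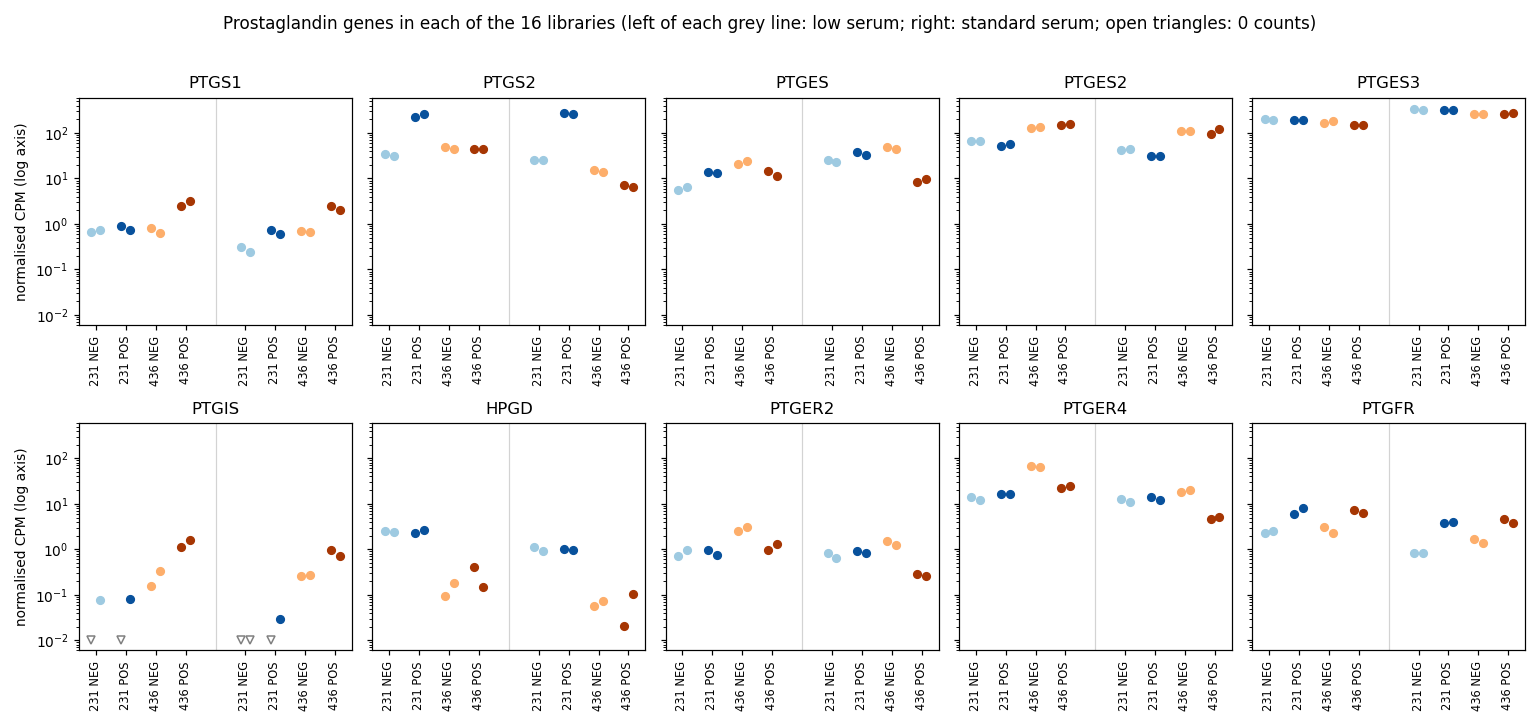
Normalised CPM (log axis) of the 10 prostaglandin genes in each of the 16 libraries, 1 point per library, with low serum left of the grey line and standard serum right of it in every panel, and open triangles for libraries with 0 counts. PTGS2 is highest in the 4 MDA-MB-231 7TGP-POS libraries (227 to 269 CPM), PTGFR is higher in 7TGP-POS than in 7TGP-NEG in both lines, and PTGIS is at 0 to 2 counts in MDA-MB-231.

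Compared per length, the genes kept very different levels. PTGES3, a p23 co-chaperone that also has prostaglandin E synthase activity, was the most abundant of the 10 in every group but MDA-MB-436 7TGP-POS in low serum, where PTGES2 was higher. It was read at 102 to 155 TPM (a level per transcript length) in low serum and 292 to 336 TPM in standard serum. Protein-coding genes took 41.0% to 69.6% of TPM in low serum and 94.3% to 95.7% in standard serum. TPM values of the serum conditions are therefore listed side by side but not compared. PTGES2, the membrane-associated synthase that is made constitutively, was read at 32.5 to 131 TPM and at 34.6 to 163 TPM. PTGES, the inducible microsomal synthase, was read at 6.34 to 35.1 TPM in low and 17.8 to 96.2 TPM in standard serum, and PTGS2 at 13.2 to 88.7 and 4.87 to 174 TPM. PTGER4 was read at 6.73 to 50.7 TPM in low serum and 4.61 to 18.8 TPM in standard serum. PTGS1, PTGIS, HPGD, PTGER2 and PTGFR did not exceed 3.86 TPM in any library.

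PTGS2 (ENSG00000073756) lies at chr1:186640923-186650054 on the minus strand of hg19. The region just before its start is shown because PTGS2 moved most between the sublines, and those of PTGES and PTGFR because PTGES changed in opposite directions in the lines and PTGFR rose in both. Each is the 250 bases before the annotated start, from RefSeq on GRCh38.p14, written 5′ to 3′ on the gene's own strand (PTGS2 chr1:186680424-186680673, minus; PTGES chr9:129753043-129753292, minus; PTGFR chr1:78490724-78490973, plus). Capitals mark matches, on either strand, to 6 short motifs: the TCF/LEF core ATCAAAG or TTCAAAG, the NF-κB consensus, the CRE core CGTCA, the AP-1 site TGANTCA, the TATA box TATAAA and the GC box GGGCGG.
PTGS2: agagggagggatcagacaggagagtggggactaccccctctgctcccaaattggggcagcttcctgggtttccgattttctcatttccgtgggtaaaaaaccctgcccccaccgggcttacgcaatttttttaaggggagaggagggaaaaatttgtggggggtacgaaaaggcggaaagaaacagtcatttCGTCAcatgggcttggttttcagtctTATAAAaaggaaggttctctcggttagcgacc
PTGES: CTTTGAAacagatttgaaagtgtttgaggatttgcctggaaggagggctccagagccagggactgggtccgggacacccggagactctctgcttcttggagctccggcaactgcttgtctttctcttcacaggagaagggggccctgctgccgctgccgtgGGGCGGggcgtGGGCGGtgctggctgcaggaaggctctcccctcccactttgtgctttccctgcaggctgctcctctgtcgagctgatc
PTGFR: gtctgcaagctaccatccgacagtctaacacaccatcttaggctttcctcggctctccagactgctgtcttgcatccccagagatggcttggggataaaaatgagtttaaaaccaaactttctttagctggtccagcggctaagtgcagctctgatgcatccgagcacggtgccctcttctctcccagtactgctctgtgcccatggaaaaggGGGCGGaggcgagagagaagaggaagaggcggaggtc

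The PTGS2 window held a CRE core at bases -58 to -54 and a TATA box at -32 to -27. The PTGES window held a TCF/LEF core on the opposite strand at its far end, -250 to -244, and GC boxes at -89 to -84 and -78 to -73, and the PTGFR window held a GC box at -37 to -32. The same letters occurred in many of the 35116 promoters of that length: the TCF/LEF core in 5.94%, the CRE core in 21.2%, the TATA box in 10.7%, the GC box in 42.6%, the NF-κB consensus in 9.96% and the AP-1 site in 6.57%. Of the 9 members with an entry, PTGES was the only one with the TCF/LEF core in this window, and PTGER2, PTGER4, PTGES3 and HPGD had the NF-κB consensus. The consensus was searched as GGGRNNYYCC, where R is A or G, Y is C or T and N is any base. The PTGS2 window holds GGGACTACCC, which has A at the first Y and so was not marked. Near matches of this kind were not searched for in any window. These matches describe the letters only.

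PTGS2, the inducible cyclooxygenase, separated the MDA-MB-231 sublines more than any other of the 10 genes. In low serum its normalised counts were 34.8 and 31.8 CPM in MDA-MB-231 7TGP-NEG and 227 and 265 CPM in 7TGP-POS, and in standard serum 26.1 and 24.9 CPM against 269 and 257 CPM. The groups did not overlap, and the log2 fold changes were 2.89 ± 0.070 (SE; adjusted p = 8.38e-22) in low and 3.37 ± 0.085 (adjusted p = 2.45e-15) in standard serum. In MDA-MB-436 in low serum, PTGS2 was at 48.9 and 45.1 CPM in 7TGP-NEG and at 44.6 and 44.5 CPM in 7TGP-POS, a log2 difference of -0.08 with a 95% interval from -0.22 to 0.06 (adjusted p = 0.37). In standard serum it was at 15.1 and 14.1 CPM in 7TGP-NEG and 7.05 and 6.37 CPM in 7TGP-POS, so that PTGS2 fell by 1.12 ± 0.093 on the log2 scale (adjusted p = 1.87e-08). The difference between the lines in this change was 2.97 ± 0.099 in low serum (adjusted p = 8.06e-19) and 4.49 ± 0.12 in standard serum (adjusted p = 2.51e-14). In standard serum the groups followed in the order 7TGP-POS and then 7TGP-NEG of MDA-MB-436, 7TGP-NEG and then 7TGP-POS of MDA-MB-231, with no overlap between neighbours. In low serum MDA-MB-231 7TGP-NEG was lowest, below both MDA-MB-436 sublines, which are the neighbours in that order that did not differ by the test.

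PTGS2 shares its place with PACERR, an antisense RNA on the opposite strand, and the sources used here do not state whether counting used strand. PACERR counts came to 0.300% to 1.70% of the PTGS2 counts in low serum and 0.290% to 0.766% in standard serum. PTGS1, PTGES3, HPGD, PTGER4 and PTGFR also overlap annotated genes. Among these are TTC33 on the strand opposite PTGER4 and MGC27382 on the strand of PTGFR. The part of these genes in the counts was not tested.

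PTGS1 (ENSG00000095303, chr9:125132809-125157982, plus), the cyclooxygenase that many cells make constitutively, was far less abundant than PTGS2 and changed chiefly in MDA-MB-436. In MDA-MB-436 it was read at 25 and 17 counts in 7TGP-NEG and at 73 and 85 counts in 7TGP-POS in low serum, and at 24 and 27 against 122 and 78 counts in standard serum. The 7TGP-POS libraries lay above the 7TGP-NEG libraries in both conditions, and PTGS1 rose by 1.94 ± 0.26 (adjusted p = 4.17e-08) and 1.72 ± 0.25 (adjusted p = 1.96e-05) on the log2 scale. In MDA-MB-231 in low serum it was read at 18 and 19 counts in 7TGP-NEG and at 24 and 18 in 7TGP-POS, so the states overlapped (log2 fold change 0.25, 95% interval -0.46 to 0.95, adjusted p = 0.64). In MDA-MB-231 in standard serum it was read at 10 and 7 counts against 23 and 20 counts, a log2 fold change of 1.24 ± 0.40 (adjusted p = 0.023). That last call was lost with DESeq2 (adjusted p = 0.11) and without MDA-MB-231 7TGP-NEG replicate 1 (0.064) or replicate 2 (0.12) or 7TGP-POS replicate 1 (0.11). The change was larger in MDA-MB-436 than in MDA-MB-231 in low serum, with a difference of -1.69 ± 0.46 (adjusted p = 0.0021), whereas in standard serum the difference between lines of -0.48 ± 0.51 did not pass (adjusted p = 0.49).

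Per length, PTGS2 exceeded PTGS1 in all 16 libraries, but by very different factors. PTGS1 was read at few counts, for example 18 to 24 in MDA-MB-231 7TGP-POS in low serum and 7 to 10 in 7TGP-NEG in standard serum. A few PTGS1 counts more or less therefore move the factor. The ratio of PTGS2 TPM to PTGS1 TPM was 267 and 386 in the MDA-MB-231 7TGP-POS libraries in low serum and 379 and 454 in those from standard serum. In the 7TGP-POS libraries of MDA-MB-436 it was 19.5 and 15.0 in low serum, but only 2.99 and 3.41 in standard serum, where the summed TPM of both enzymes was 7.11 and 6.30. In the 7TGP-NEG libraries the ratio was 55.0 and 47.3 in MDA-MB-231 and 65.3 and 75.6 in MDA-MB-436 in low serum, and 87.6 and 112 against 23.1 and 22.6 in standard serum.

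PTGES (ENSG00000148344, chr9:132500610-132515321, minus), the inducible microsomal prostaglandin E synthase that often acts with PTGS2, went up in MDA-MB-231 7TGP-POS and down in MDA-MB-436 7TGP-POS. In low serum it was at 5.55 and 6.51 CPM in MDA-MB-231 7TGP-NEG and at 13.7 and 13.5 CPM in 7TGP-POS, a rise of 1.17 ± 0.13 on the log2 scale (adjusted p = 3.53e-09). In standard serum it was at 25.2 and 22.6 CPM against 38.8 and 32.1 CPM, a rise of 0.57 ± 0.11 that passed the test (adjusted p = 0.00064) but not the fold threshold. In MDA-MB-436 the values were 21.0 and 24.3 CPM in 7TGP-NEG and 14.3 and 11.2 CPM in 7TGP-POS in low serum, where PTGES fell by 0.82 ± 0.10 (adjusted p = 4.22e-08), again under the fold threshold. In standard serum they were 49.3 and 44.5 CPM against 8.49 and 9.94 CPM, and PTGES fell by 2.35 ± 0.12 (adjusted p = 4.83e-11). States did not overlap in any of the 4 comparisons, and the lines differed by 1.99 ± 0.16 in low serum (adjusted p = 6.51e-12) and 2.92 ± 0.16 in standard serum (adjusted p = 2.95e-10).

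PTGES2 (ENSG00000148334, chr9:130882972-130890741, minus) and PTGES3 (ENSG00000110958, chr12:57057125-57082192, minus) moved little. PTGES2 was at 66.9 and 66.0 CPM in MDA-MB-231 7TGP-NEG and at 52.6 and 56.1 CPM in 7TGP-POS in low serum, and at 43.1 and 44.4 against 30.8 and 31.9 CPM in standard serum. It fell by 0.29 ± 0.056 (adjusted p = 4.58e-05) and by 0.48 ± 0.10 (adjusted p = 0.0012) on the log2 scale. In MDA-MB-436 PTGES2 was higher by 0.22 ± 0.051 in low serum (adjusted p = 0.00032), a sign that turned to -0.03 when TPM were compared in place of normalised counts. In standard serum it was at 108 and 110 CPM in 7TGP-NEG and at 96.5 and 123 CPM in 7TGP-POS, which overlap (log2 fold change 0.00, 95% interval -0.18 to 0.19). PTGES3 was at 147 to 200 CPM in all low-serum libraries and at 262 to 331 CPM in all standard-serum libraries. The largest POS-to-NEG change of PTGES3 was -0.25 ± 0.051 in MDA-MB-436 in low serum (adjusted p = 5.09e-05), and in the other 3 comparisons its 95% intervals stayed between -0.19 and 0.16. PTGES3 has processed copies in the genome whose reads can be assigned either way: PTGES3P1 held 16 to 179 counts per library and the others at most 25.

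PTGIS (ENSG00000124212, chr20:48120411-48184674, minus) makes prostacyclin, and it was found above the floor of 3 counts in MDA-MB-436 alone. All 8 MDA-MB-231 libraries held 0 to 2 counts, which at these depths cannot be told from absence. In MDA-MB-436 it was read at 5 and 9 counts in 7TGP-NEG and at 34 and 43 counts in 7TGP-POS in low serum, and at 9 and 11 against 48 and 28 counts in standard serum. The states did not overlap, and PTGIS rose by 2.47 ± 0.45 (adjusted p = 1.2e-05) and 1.67 ± 0.40 (adjusted p = 0.0023) on the log2 scale, although the second call was lost with DESeq2 (adjusted p = 0.14). Bounds were taken in mean CPM against a floor of 3 counts per library. MDA-MB-436 7TGP-POS was at least 11.6-fold higher than MDA-MB-231 7TGP-POS in low serum and at least 9.08-fold higher in standard serum. The 7TGP-NEG sublines differed by at least 2.20-fold and 2.68-fold in mean CPM. With 5 and 9 counts in low serum, the lower MDA-MB-436 7TGP-NEG library lay closer to the floor than this mean.

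HPGD (ENSG00000164120, chr4:175411326-175444305, minus), the dehydrogenase that inactivates prostaglandins, differed between the lines, and no difference between reporter states passed the test. In MDA-MB-231 it was read at 67 and 64 counts in 7TGP-NEG and 62 and 64 counts in 7TGP-POS in low serum, and at 36 and 26 against 31 and 32 counts in standard serum. The 95% intervals of the log2 fold change ran from -0.42 to 0.44 and from -0.69 to 0.57. In MDA-MB-436 HPGD was read at 3 and 5 counts against 12 and 4 counts in low serum and at 1 to 4 counts in standard serum. The 95% interval of the log2 fold change there ran from -0.27 to 2.28 in low serum, and no fold is given for standard serum, where both states were near the floor. Between the 7TGP-NEG sublines HPGD was higher in MDA-MB-231 by 4.11 ± 0.40 in low serum (adjusted p = 2.08e-12). In standard serum, where MDA-MB-436 7TGP-NEG was at the floor, HPGD was at least 12.6-fold higher in mean CPM.

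PTGER4 (ENSG00000171522, chr5:40680017-40693837, plus), the EP4 receptor of prostaglandin E2, which raises cyclic AMP, was lower in MDA-MB-436 7TGP-POS. In low serum it was at 66.4 and 64.0 CPM in the 7TGP-NEG state of MDA-MB-436 and at 22.7 and 24.5 CPM in 7TGP-POS, and in standard serum at 18.0 and 19.7 CPM against 4.58 and 5.02 CPM. The states did not overlap, and PTGER4 fell by 1.47 ± 0.070 (adjusted p = 5.14e-21) and by 1.98 ± 0.12 (adjusted p = 4.35e-10) on the log2 scale. The genes around it moved too: among the 50 tested genes nearest to PTGER4, 34 passed the test as lower in MDA-MB-436 7TGP-POS in low serum and 37 did so in standard serum. Their median log2 fold changes were -0.83 and -0.79. PTGER4 lay 0.63 and 1.19 below these medians, and the part of its neighbourhood in the change was not tested. In MDA-MB-231 PTGER4 was at 14.3 and 12.1 CPM in 7TGP-NEG and 16.8 and 16.1 CPM in 7TGP-POS in low serum, a rise of 0.32 ± 0.089 (adjusted p = 0.0037) that did not pass on TPM (adjusted p = 0.62 with a pseudocount of 1) or without 7TGP-NEG replicate 2 (0.14). In standard serum the states overlapped, at 13.1 and 11.2 against 13.9 and 11.9 CPM (log2 fold change 0.09, 95% interval -0.15 to 0.32). The lines differed in the change by 1.78 ± 0.11 (adjusted p = 9.43e-17) and 2.06 ± 0.17 (adjusted p = 3.41e-08).

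PTGER2 (ENSG00000125384, chr14:52781023-52795316, plus), the EP2 receptor, is also coupled to cyclic AMP and had the same direction at a much lower level. In MDA-MB-436 it was read at 80 and 83 counts in 7TGP-NEG and 29 and 35 counts in 7TGP-POS in low serum, and at 53 and 50 against 14 and 10 counts in standard serum. The states did not overlap, and PTGER2 fell by 1.32 ± 0.24 (adjusted p = 1.21e-05) in low serum and fell by 2.33 ± 0.32 (adjusted p = 9.38e-06). Its 50 neighbours moved the other way, with medians of 0.33 and 0.43. In MDA-MB-231 it was read at 19 and 26 against 26 and 18 counts in low serum and at 26 and 18 against 28 and 28 counts in standard serum (95% intervals of the log2 fold change -0.64 to 0.70 and -0.36 to 0.89). The lines differed by 1.35 ± 0.42 in low serum (adjusted p = 0.0080), a call lost without MDA-MB-231 7TGP-NEG replicate 1 (0.055) or 7TGP-POS replicate 1 (0.084), and by 2.59 ± 0.46 in standard serum (adjusted p = 0.00018).

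PTGFR (ENSG00000122420, chr1:78769568-79006386, plus), the receptor of prostaglandin F2α, was higher in 7TGP-POS cells of both lines. In MDA-MB-231 it was read at 61 and 66 counts in 7TGP-NEG and 156 and 203 counts in 7TGP-POS in low serum, and at 26 and 24 against 116 and 135 counts in standard serum. In MDA-MB-436 it was read at 95 and 61 against 222 and 170 counts in low serum, and at 58 and 55 against 222 and 147 counts in standard serum. No 7TGP-NEG library overlapped a 7TGP-POS library of its line and serum. PTGFR rose by 1.57 ± 0.19 (adjusted p = 1.91e-08) and 2.23 ± 0.23 (adjusted p = 4.58e-07) in MDA-MB-231 and by 1.36 ± 0.18 (adjusted p = 6.35e-08) and 1.46 ± 0.19 (adjusted p = 5.09e-06) in MDA-MB-436. The difference between lines was 0.21 with a 95% interval from -0.31 to 0.73 in low serum (adjusted p = 0.56). In standard serum it was 0.78 ± 0.31 (adjusted p = 0.052), just short of the threshold, and it passed without MDA-MB-436 7TGP-POS replicate 1 (0.94, adjusted p = 0.028), with the size factors of DESeq2 (adjusted p = 0.047) and with edgeR's own count filter (0.048).

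**Figure D2:**
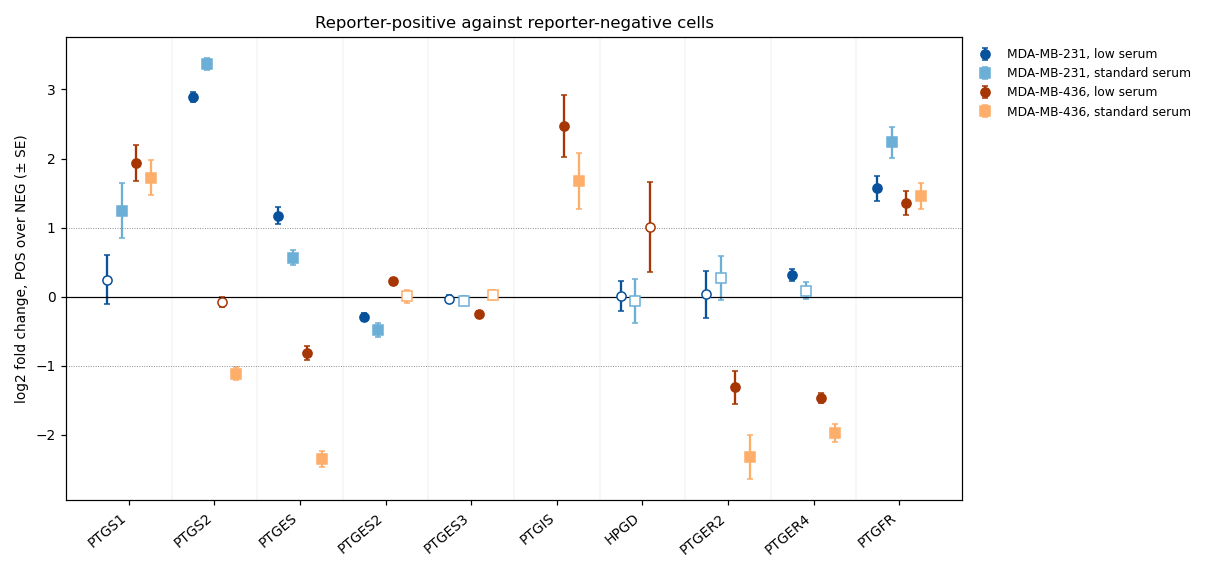
Log2 fold change of 7TGP-POS over 7TGP-NEG (± SE) for each prostaglandin gene in the 4 comparisons, with filled symbols for an adjusted p below 0.05, dotted lines at 1 and -1, and no point where a group was at or under 3 counts. PTGFR lies above 1 in all 4 comparisons, and PTGS2 reaches 3.37 in MDA-MB-231 and -1.12 in MDA-MB-436 in standard serum.

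The 50 genes nearest to PTGS2 had medians of 0.08 and 0.19 in MDA-MB-231, and those nearest to PTGFR medians of 0.11 and 0.21 in MDA-MB-231 and 0.03 and 0.12 in MDA-MB-436. On chromosome 9, the neighbours of PTGES had medians of -0.37 and -0.48 in MDA-MB-231 while PTGES rose, and those of PTGES2 medians of -0.48 in both serum conditions, so that in standard serum PTGES2 moved as its neighbours did (difference 0.00). The neighbours of PTGIS had medians of 0.30 and 0.42 in MDA-MB-436.

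**Figure D3:**
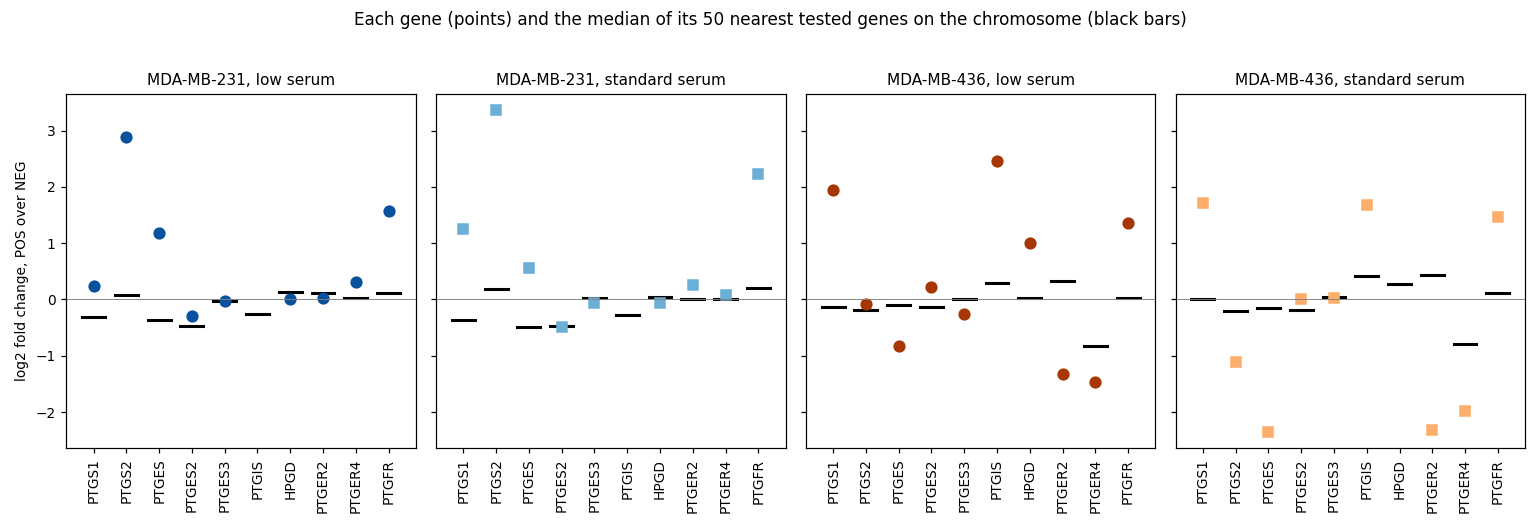
Log2 fold change of 7TGP-POS over 7TGP-NEG for each prostaglandin gene (points) and the median of the 50 tested genes nearest to it on its chromosome (black bars), 1 panel per line and serum condition; no point is drawn where a group was at or under 3 counts. The bar under PTGER4 reaches -0.83 and -0.79 in MDA-MB-436, whereas the bars at PTGS2 and PTGFR stay between -0.20 and 0.21 in all panels.

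Between the 7TGP-NEG sublines of the lines, 5 of the 10 genes were DEGs in low serum, beside 41.9% of all genes, and 4 in standard serum, beside 46.7%, a count that was 7 without MDA-MB-436 7TGP-NEG replicate 2. By the adjusted p alone 8 and 10 of the 10 genes passed, beside 79.2% and 78.8% of all genes. HPGD was the one gene called higher in MDA-MB-231. On the log2 scale, MDA-MB-231 minus MDA-MB-436, the genes called lower in low serum were PTGER4 at -2.30 ± 0.077 (adjusted p = 1.44e-27), PTGES at -1.91 ± 0.12 (adjusted p = 5.42e-16), PTGER2 at -1.73 ± 0.26 (adjusted p = 1.17e-07) and PTGIS, given above as a bound, whose call was lost without MDA-MB-231 7TGP-NEG replicate 1 or MDA-MB-436 7TGP-NEG replicate 2. In standard serum they were PTGES2 at -1.32 ± 0.098 (adjusted p = 1.5e-09), PTGS1 at -1.27 ± 0.39 (adjusted p = 0.0065) and PTGIS. PTGS2 was lower in MDA-MB-231 7TGP-NEG in low serum (-0.50 ± 0.073, adjusted p = 7.49e-07) and higher in standard serum (0.80 ± 0.086, adjusted p = 9.22e-08).

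Of 39 further eicosanoid genes, the low-serum fit tested 34 and the standard-serum fit 30. In MDA-MB-231, 7 were DEGs in low serum (4 higher in 7TGP-POS, 3 lower) and 4 in standard serum (3 higher, 1 lower), beside the 5.9% and 7.69% of all genes given above. In MDA-MB-436, 6 were DEGs in low serum (1 higher, 5 lower) and 7 in standard serum (3 higher, 4 lower), beside 10.5% and 12.5%. Genes above 3 counts in both states had a median log2 fold change of 0.05 (26 genes) and 0.16 (21 genes) in MDA-MB-231 and of -0.10 (30 genes) and -0.30 (28 genes) in MDA-MB-436.

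Among the genes upstream of the cyclooxygenases, PLA2G4A, the cytosolic phospholipase that releases arachidonic acid, was the only DEG between reporter states, of 10 listed and 8 (low serum) and 6 (standard serum) tested. It was at 7.77 and 8.21 CPM in MDA-MB-231 7TGP-NEG and 22.4 and 23.6 CPM in 7TGP-POS in low serum, and at 8.05 and 7.61 against 44.4 and 41.1 CPM in standard serum. PLA2G4A rose by 1.52 ± 0.092 (adjusted p = 2.72e-17) and 2.45 ± 0.099 (adjusted p = 1.82e-12) in MDA-MB-231. In MDA-MB-436 it rose by 0.54 ± 0.070 in low serum (adjusted p = 1.66e-08), and in standard serum its log2 fold change was -0.13 ± 0.089 (adjusted p = 0.24). PLA2G4A lies at chr1:186798081-186958113, beside PTGS2.

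Among the other synthases, TBXAS1, the thromboxane synthase, fell in MDA-MB-231 by 1.80 ± 0.11 and 1.38 ± 0.12 and in MDA-MB-436 by 1.21 ± 0.17 and 0.71 ± 0.14. Its levels in MDA-MB-231 were 27.7 and 32.3 CPM in 7TGP-NEG against 9.33 and 7.83 CPM in 7TGP-POS in low serum. AKR1B1, an aldose reductase that can form prostaglandin F2α, rose in MDA-MB-231 by 1.36 ± 0.053 and 1.04 ± 0.074 and fell in MDA-MB-436 by 0.34 ± 0.049 and 0.55 ± 0.072. AKR1C3, which belongs to a family of near-identical reductases that can share reads, fell in MDA-MB-231 in low serum by 1.05 ± 0.084 and rose in MDA-MB-436 in standard serum by 1.77 ± 0.28. PTGDS, the lipocalin-type prostaglandin D synthase, was at 0 to 3 counts in every MDA-MB-231 library. In MDA-MB-436 PTGDS rose by 0.74 ± 0.071 in low serum (adjusted p = 1.12e-11), from 38.0 and 37.1 to 57.8 and 67.9 CPM, and fell by 1.89 ± 0.12 in standard serum (adjusted p = 8.33e-08), from 119 and 125 to 28.8 and 36.8 CPM. SLCO2A1, the prostaglandin uptake transporter, rose in MDA-MB-436 by 1.68 ± 0.38 and 1.30 ± 0.28, from 8 and 16 to 38 and 38 counts and from 29 and 30 to 103 and 69 counts, and its second call was lost with DESeq2 (adjusted p = 0.065).

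Of the other prostanoid receptors, TBXA2R, the thromboxane receptor, was at 2.52 to 3.67 mean CPM in low serum and 0.70 to 0.77 in standard serum in MDA-MB-231. PTGIR, the prostacyclin receptor, held 0 to 5 counts per library in MDA-MB-231. In MDA-MB-436 PTGIR was read at 150 and 143 against 29 and 23 counts in low serum and at 159 and 237 against 24 and 18 counts in standard serum. It fell there by 2.46 ± 0.23 (adjusted p = 3.33e-12) and 3.45 ± 0.25 (adjusted p = 7.07e-09), in the same comparisons in which the prostacyclin synthase PTGIS rose. A link between these changes was not tested. PTGER3, the EP3 receptor, fell in MDA-MB-436 by 1.39 ± 0.43 and 2.01 ± 0.55 at 2 to 23 counts per library, and both calls were lost with DESeq2 (adjusted p = 0.052 and 0.080), the second also without 7TGP-NEG replicate 1 or 7TGP-POS replicate 2. PTGFRN, a partner protein of PTGFR and not itself a prostanoid receptor, was at 0 to 22 counts in MDA-MB-231. Its rise of 2.56 ± 0.50 there in low serum rests on 4 and 2 against 22 and 13 counts. In MDA-MB-436 PTGFRN was at 67.5 mean CPM in 7TGP-NEG and 76.7 in 7TGP-POS in low serum, and at 39.0 and 40.5 in standard serum. PTGER1, the EP1 receptor, was called higher in MDA-MB-436 in standard serum on 2 and 8 counts against none. The lower of these counts was itself under the floor of 3, so no fold is given. The call was lost without either 7TGP-NEG library or 7TGP-POS replicate 2.

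In the lipoxygenase branch, which uses the same arachidonic acid for leukotrienes, ALOX5 fell in MDA-MB-436 by 1.57 ± 0.13 (adjusted p = 7.94e-14) and fell by 2.81 ± 0.16 (adjusted p = 7.56e-11), from 13.7 and 14.4 to 4.72 and 4.70 CPM in low serum and from 20.8 and 25.1 to 2.96 and 3.62 CPM in standard serum. In MDA-MB-231 ALOX5 fell by 2.92 ± 0.46 in low serum, from 35 and 22 to 4 and 3 counts (adjusted p = 1.62e-06), and held 0 to 3 counts in standard serum. ALOX5AP, which presents arachidonic acid to ALOX5, was called higher in MDA-MB-231 on 12 and 15 against 2 and 6 counts in low serum and 7 and 9 against 1 and 0 counts in standard serum. The first call was lost with DESeq2 and without MDA-MB-231 7TGP-NEG replicate 1 or 7TGP-POS replicate 2, and the second without 7TGP-NEG replicate 2. ALOX12B, an epidermal lipoxygenase, was called lower in MDA-MB-436 in low serum, by 1.24 ± 0.27 (adjusted p = 0.00015), which came under the fold threshold, at -0.97, without MDA-MB-436 7TGP-NEG replicate 2.

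**Figure D4:**
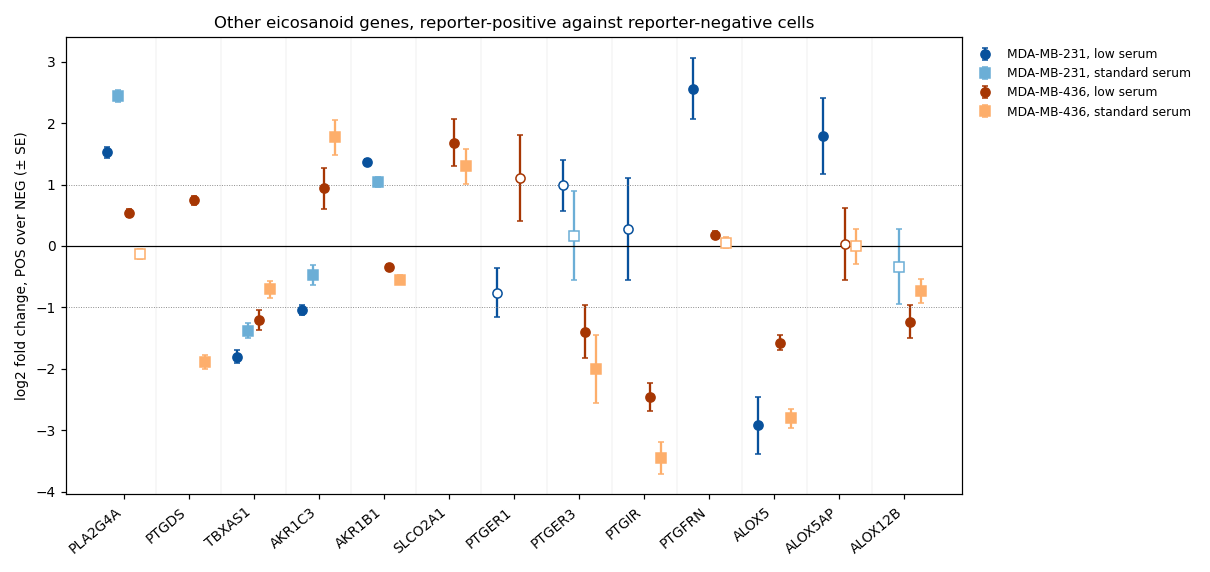
Log2 fold change of 7TGP-POS over 7TGP-NEG (± SE) for the 13 further eicosanoid genes called in at least 1 comparison, with filled symbols for an adjusted p below 0.05 and no point where a group was at or under 3 counts. PLA2G4A and AKR1B1 lie above 1 in MDA-MB-231 in both serum conditions, and PTGIR and ALOX5 lie below -1 in MDA-MB-436 in both.

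For each of the 7 members called in at least 2 POS-to-NEG comparisons, the genes with the most similar pattern were looked up among 12554 genes, as the mean of the Pearson correlation over the 8 low-serum libraries and that over the 8 standard-serum libraries. The libraries form 4 groups in each serum condition, so these values describe how alike the group levels were. PTGS2 was closest to ICAM1, an adhesion molecule of inflamed endothelium and tumor cells (0.98), followed by TMEM11 and PRCP (0.97 each). PTGFR was closest to RARB, the retinoic acid receptor beta (0.96), and CXCL1, a neutrophil chemokine (0.94), followed by ACBD5 (0.93). PTGS1 was closest to the interferon-induced MX1 (0.99), followed by PEG10 and CCDC3 (0.97 each). PTGIS was closest to SV2B (0.98), the gelatinase MMP2 and XYLB (0.97 each). As PTGIS was at the floor in every MDA-MB-231 library, its correlations cannot resolve differences among those libraries. PTGER2 was closest to PTGER4 and SQOR (0.96 each). Among the genes closest to PTGER4 were SQOR (0.98) and the interferon-induced IFIT3 (0.96), and PTGES to RPN1 (0.96), RGS2 and VWDE (0.95 each).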

How the data were processed

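RNA-seq of 16 libraries, 2 replicates in each of 8 groups, was analysed from the deposited raw gene counts and from the TPM table that the authors deposited beside them. Per the labels and methods, reads were aligned with STAR (2.6.1a in the labels) to hg19 with Gencode annotation. How TPM were computed and the strand setting are not given in the sources used here, and the labels name 1 kit for all libraries where the methods name 2. Gene symbols came from Gencode v44lift37, which matched 55538 of 57820 identifiers.

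Each serum table was fitted by itself with edgeR 4.0.16 (R 4.3.3; TMM, robust quasi-likelihood test, 4 groups) on the protein-coding genes whose 8 libraries summed to 10 counts or more (16069 and 15414 genes), with Benjamini-Hochberg adjustment over all of them. CPM in the text are TMM-normalised. Where groups or states are said not to overlap, this describes 2 libraries against 2, and the share of all genes without overlap was not counted. The fit was tested on simulated data. Alternatives used DESeq2 1.42.0, limma 3.58.1 on log2(TPM + 1) and log2(TPM + 0.1), other filters, and each library left out. The floor was 3 counts per library and covers counting error only. Bounds given as at least a fold set the mean CPM of the higher group against this floor. The SEs of log2 fold changes were worked back from the statistic of the quasi-likelihood test. The 95% intervals were set from these SEs with the normal quantile, so they are somewhat narrower than that test implies. Both include the spread between replicates as the fit estimated it. Each subline is 1 sorted population, so p-values do not measure the spread between separate sorts. Reporter state and any other difference between the sorted populations of a line cannot be told apart. Where "biological replicate" in the labels does not mean a separate culture, p-values measure only the spread between these samples.

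The 10 genes, the 39 further genes and the lists were chosen with earlier results of these data known. Further genes were named where called in a POS-to-NEG comparison with at least 10 counts in every library of 1 group. Neighbours are the 25 tested genes on either side. A few genes of the marker list and of the genes with a similar pattern are not reported here.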

Additional observations from a re-analysis of the deposited data

Results flagged for a closer look

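The POS-to-NEG change of 7 of the 10 genes was not the same in MDA-MB-231 as in MDA-MB-436 by the interaction term of edgeR's quasi-likelihood test, in at least 1 serum condition. By the same adjusted p alone the term passed for 7345 of all 16069 genes (45.7%) in the low-serum fit and 6355 of all 15414 (41.2%) in the standard-serum fit. Values are the log2 fold change in MDA-MB-231 minus that in MDA-MB-436. In both serum conditions the difference was positive for PTGS2 (2.97 in low and 4.49 in standard serum), PTGES (1.99 and 2.92), PTGER2 (1.35 and 2.59) and PTGER4 (1.78 and 2.06). For PTGES2 it was negative in both (-0.51 and -0.48). For PTGS1 it was -1.69 and for PTGES3 0.22, each in low serum.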

How the results depend on the processing

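The number of members called was the same, or within 1.5 times, under DESeq2's test and size factors, other count filters, all biotypes, a larger prior count and, where it applies, the libraries of 1 cell line alone. Values below name line and serum in the order MDA-MB-231 low, MDA-MB-231 standard, MDA-MB-436 low and MDA-MB-436 standard, then the 7TGP-NEG sublines and the difference between lines in low and standard serum. The counts were 3, 3, 5, 7, 5, 4, 5 and 4. On log2(TPM + 1), which understates changes of low genes, they moved to 1 (MDA-MB-231 low), 3 (MDA-MB-436 low), 4 (MDA-MB-436 standard), 2 (7TGP-NEG standard) and 3 (difference, low). Tested against a fold change of 2, they moved to 3 (MDA-MB-436 low), 4 (MDA-MB-436 standard) and 3 (difference, low). With no fold threshold they were 5, 5 and 8 in the first 3, and 8 and 10 between the 7TGP-NEG sublines; of all genes tested, 6250, 5084 and 8348 then passed in the first 3, and 12730 of 16069 and 12140 of 15414 between the sublines. Leaving out 1 library gave 3 to 3, 2 to 3, 5 to 6, 7 to 7, 4 to 5, 4 to 7, 4 to 5 and 4 to 4; the 7 came without MDA-MB-436 7TGP-NEG replicate 2. The lone library of a group was then taken to vary like the other groups.

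Nothing in the labels says that a replicate number marks a shared culture or day, and not all pairs of groups deviated together (correlations of deviations -0.097 to 0.020 in low serum, and -0.022 to 0.15 in standard serum, where 4 of 6 pairs were over 0.1). A replicate block moved the genes passing the adjusted p in the POS-to-NEG comparisons from 6250, 5084, 8348 and 7631 to 6055, 5569, 8153 and 8137, and left the counts of members at 3, 3, 5, 7, 5, 4, 5 and 4. With the block the difference between lines of PTGFR in standard serum passed (0.79, adjusted p = 0.046), as it did with DESeq2-style size factors (0.79, 0.047) and edgeR's own filter (0.78, 0.048).

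Signs turned only for small differences. On TPM, PTGES2 in MDA-MB-436 in low serum was at -0.027 with either pseudocount, PTGES3 between the 7TGP-NEG sublines in low serum at -0.24 and -0.25 (adjusted p = 0.028 and 0.025) against 0.16 on counts, and in MDA-MB-231 in low serum HPGD was at -0.087 and -0.16 and PTGER2 at -0.069 and -0.15. On TPM the median log2 fold change of all genes in low serum was -0.13 and -0.19 in MDA-MB-231 and -0.15 and -0.21 in MDA-MB-436, against -0.01 and 0.01 on counts, and protein-coding genes took 41.0% to 69.6% of TPM there against 94.3% to 95.7% in standard serum. In MDA-MB-436 in standard serum PTGES2 was at -0.021 with DESeq2 and with its size factors, -0.0028 with no filter, -0.010 with all biotypes and -0.0022 with the block, and PTGES3 at -0.0023 with DESeq2 and with its size factors. PTGES3 in MDA-MB-231 in low serum was at 0.0084 with all biotypes. With 1 library left out, ranges that crossed 0 were those of PTGS1 (-0.21 to 0.13) and PTGFR (-0.36 to 0.068) between the 7TGP-NEG sublines in low serum, PTGES2 in MDA-MB-436 in standard serum (-0.18 to 0.16), PTGES3 (-0.060 to 0.0037), HPGD (-0.077 to 0.10) and PTGER2 (-0.19 to 0.29) in MDA-MB-231 in low serum, HPGD (-0.20 to 0.11) and PTGER4 (-0.032 to 0.20) in MDA-MB-231 in standard serum, and PTGFR in the difference between lines in low serum (-0.062 to 0.45). The causes were not tested.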
